A study of Mus musculus with 69 samples.

Results

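The collagen genes of mouse embryonic stem (ES) cells, embryoid bodies and replated cells were taken from 3 expression tables as every gene whose name consists of Col, a number, the letter a and a number. This rule found 43 of the 15924 genes listed in any table. They comprised 11 fibrillar, 5 basement membrane and 27 other collagens, and 37 of them stood in all 3 tables. Col4a3 stood in none of the tables, Col15a1, Col19a1 and Col28a1 stood only in the table of replated cells, and Col9a1 was absent from that table. Col4a4 was absent from the table of drug-treated embryoid bodies and Col6a6 from that of wild-type and mutant cells. The study used the mouse ES cell line CJ7 to follow differentiation with and without the activity of EZH2, the enzyme that places trimethylation on lysine 27 of histone H3 (H3K27me3). RNA-seq values of 41 libraries in 16 groups were used.

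The first table held ES cells, day 4 embryoid bodies and day 8 embryoid bodies, each with DMSO, the solvent control, or with GSK343, an inhibitor of EZH2, and 2 libraries in each of the 6 groups. The 4 µM GSK343, or DMSO in an equal volume, was present from 3 days ahead of differentiation until collection. The second table held the same 3 stages from wild-type and mutant CJ7 cells, without either agent, in 3 libraries per group. The labels call these cells mutant without giving the allele or saying whether they derive from 1 clone. The third table held embryoid bodies that were placed back into ES cell medium for 5 days and are labelled day 14. Their 4 groups had DMSO or GSK343 first and DMSO or GSK343 afterwards, with 3 libraries each and 2 for GSK343 then GSK343. GSK343 was again at 4 µM, and the groups that began with it had it from 3 days ahead of differentiation. ES cells grew with LIF and serum on a layer of mouse embryonic fibroblast feeders, and embryoid bodies formed in hanging drops with serum and without LIF. The labels do not say that libraries of 1 group came from separate cultures, so p-values measure only the spread between these libraries.

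Collagens are triple helices of 3 chains that are hydroxylated and folded in the endoplasmic reticulum, secreted and assembled outside the cell. Fibrillar collagens, chiefly types I, III and V, form the rope-like fibrils of connective tissue and are made in bulk by fibroblasts and other mesenchymal cells. Type IV collagen forms the network of basement membranes, is made by endoderm, endothelium and epithelia, and is among the first collagens of the embryo. The other collagens decorate fibrils (types IX, XII, XIV and XVI among them), form beaded filaments (type VI), anchoring fibrils (type VII) or short-chain networks (types VIII and X), span the cell membrane (types XIII, XVII, XXIII and XXV) or carry the endostatin domain (types XV and XVIII).

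Libraries held 5005163 to 21999724 reads in the DMSO and GSK343 table, 7169949 to 28472981 in that of the 2 genotypes and 2265130 to 8341764 in the replated table. These totals include Rn45s, a precursor of ribosomal RNA, whose part differed between libraries. It was 6.38% to 11.5% with DMSO and GSK343, 4.08% to 57.9% in the 2 genotypes and 8.66% to 34.0% after replating. In every wild-type and mutant group it was highest in library 2. Ezh2 RPKM (reads scaled by gene length and library depth) was 37.2 to 62.5 in the 9 wild-type libraries and 18.3 to 26.5 in the 9 mutant libraries, so the groups did not overlap. Libraries that stood apart in collagens included wild-type ES library 3, whose fibrillar genes summed to 314 RPKM against 33.2 and 21.3 in the other wild-type ES libraries, and whose 19 listed fibroblast and mesenchyme markers summed to 1268 RPKM against 94.3 and 67.3. Wild-type day 8 library 3 held a fibrillar sum of 9.84 RPKM against 207 and 229, and its 8 pluripotency markers summed to 682 RPKM against 59.0 and 59.1. Mutant day 8 library 1, conversely, held a fibrillar sum of 179 RPKM against 11.6 and 6.35 in libraries 2 and 3. Values without these libraries stand beside the comparisons they enter.

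Replated cells had the highest share of collagen transcript. All collagens together took 0.606% to 5.34% of the reads in the 11 replated libraries (median 1.31%) and 0.0239% to 0.477% in the 30 libraries of ES cells and embryoid bodies (median 0.107%), so the ranges did not overlap. Fibroblast and mesenchyme markers had a higher median in replated libraries too: those listed summed to 579 to 6983 RPKM in the replated libraries (median 3432) and to 16.8 to 1268 in the ES and embryoid body libraries (median 87.7). These ranges overlapped, and the part of such cells in the collagen share was not tested. Among the replated groups the marker sums and the collagen share ran in different orders. The means were 5042 RPKM and 1.50% in DMSO then DMSO, and 4529 RPKM and 2.93% in DMSO then GSK343. They were 1844 RPKM and 1.26% in GSK343 then DMSO, and 2005 RPKM and 0.936% in GSK343 then GSK343. The replated and the other libraries come from separately normalized tables and were not tested against each other. A group mean of at least 10 RPKM was reached by 11 collagens in ES cells or embryoid bodies and by 17 in replated cells, where Col4a5, Col6a2, Col6a3, Col7a1, Col8a1, Col11a1 and Col16a1 joined and Col9a1 was not listed. Of the 11 fibrillar genes, 6 reached 10 RPKM in some group and Col2a1, Col5a3, Col11a2, Col24a1 and Col27a1 peaked between 1 and 10 RPKM. Of the type IV genes, Col4a1, Col4a2 and Col4a5 reached 10 RPKM, Col4a6 peaked between 1 and 10, and Col4a4 stayed under 1. Of the 27 others, 9 reached 10 RPKM, 12 peaked between 1 and 10, and Col6a4, Col6a5, Col6a6, Col17a1, Col19a1 and Col25a1 stayed under 1.

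Class sums were pooled per stage over treatments and genotypes, from tables that were normalized separately. In these pools the medians of the classes ran through the stages in different orders. The summed RPKM of the fibrillar genes was 21.3 to 314 in 10 ES libraries (median 52.2), 5.36 to 11.1 in 10 day 4 libraries (median 7.58), 6.35 to 229 at day 8 (median 40.7) and 637 to 7153 after replating (median 1316). All day 4 libraries therefore lay below every ES library, while day 8 libraries spread from the day 4 level to above most ES libraries. With DMSO alone, mean fibrillar sums were 54.2 RPKM in ES cells, 8.11 at day 4 and 105 at day 8. In the wild type alone they were 123, 7.64 and 149 RPKM. The ES mean held library 3 at 314 RPKM beside 33.2 and 21.3 in the others. The day 8 mean held libraries from 9.84 to 229 RPKM, so each of these means was moved by library 3. Day 8 means thus exceeded ES means in both control series, unlike the pooled medians, although libraries of these stages overlapped. The basement membrane sum was 19.5 to 85.3 RPKM in ES cells (median 53.0), 9.90 to 71.5 at day 4 (median 33.8), 44.7 to 356 at day 8 (median 179.7) and 51.9 to 429 after replating (median 139). The basement membrane sums of day 8 and replated libraries thus overlapped, whereas every replated fibrillar sum lay above every day 8 one. Mean basement membrane sums with DMSO were 53.1 RPKM in ES cells and 260 at day 8. In the wild type they were 34.7 and 129 RPKM. The sum of the other collagens was 64.0 to 233 RPKM in ES cells, 48.2 to 115 at day 4, 54.2 to 186 at day 8 and 249 to 1076 after replating.

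Many collagen genes carry the mark that EZH2 places. Of the 43 collagens, 29 (67.4%) had a peak of the authors' merged wild-type H3K27me3 list within 1 kb of the gene span, against 32.7% of 15648 genes with a position in RefSeq (GRCm38.p6, the assembly that mm10 names). The sources used here do not say which libraries went into the merged lists. Among 35 collagens with an annotated start site in the promoter table, 21 (60.0%) had such a peak within 1 kb of it, against 26.2% of 12217 genes. The merged lists of the polycomb proteins Suz12, Ring1B and Ezh2 were shorter and lay near 4 (9.30%), 5 (11.6%) and 2 (4.65%) of the 43 collagens, against 2.89%, 5.08% and 2.10% of all genes. The authors' deposited table calls 27 of 42 collagens (64.3%) polycomb targets, against 32.2% of all its genes, with 8 of 11 fibrillar, 3 of 5 basement membrane and 16 of 26 other collagens among them. Genes without an H3K27me3 peak included Col3a1, Col5a2, Col6a1, Col9a1, Col18a1, Col4a5 and Col4a6. Col4a1 (chr8:11198423-11312889) and Col4a2 (chr8:11312805-11449287), which are transcribed away from each other, overlap by 85 bases at their starts, and 1 H3K27me3 peak of 13521 bases (chr8:11307932-11321452) covered both starts. Suz12 peaks of the merged list lay near the starts of Col4a1, Col4a2 and Col13a1.

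Promoter sequences showed how the genes with and without the peak differed in letters. The sequences below are the bases just upstream of the start site, up to 250, from RefSeq (GRCm38.p6), written 5′ to 3′ on the gene's strand, with every CG dinucleotide in capitals. Bases inside a RefSeq gene span were left out, which shortened the stretches of Col5a1, Col9a1, Col4a5 and Col4a6. They are shown for 6 genes whose expression changes are described below. Col1a2 (chr6:4505368-4505617, plus strand) and Col5a1 (chr2:27886175-27886380, plus strand) have a start site within 1 kb of an H3K27me3 peak. Col3a1 (chr1:45311288-45311537, plus strand), Col9a1 (chr1:24177360-24177588, plus strand), Col4a5 (chrX:141475169-141475369, plus strand) and Col4a6 (chrX:141474096-141474326, minus strand) do not.
Col1a2: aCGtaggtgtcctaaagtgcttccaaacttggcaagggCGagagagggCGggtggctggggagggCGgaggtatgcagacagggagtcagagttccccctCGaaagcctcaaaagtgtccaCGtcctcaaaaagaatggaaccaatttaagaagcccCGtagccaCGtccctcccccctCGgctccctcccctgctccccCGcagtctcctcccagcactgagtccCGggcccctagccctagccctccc
Col5a1: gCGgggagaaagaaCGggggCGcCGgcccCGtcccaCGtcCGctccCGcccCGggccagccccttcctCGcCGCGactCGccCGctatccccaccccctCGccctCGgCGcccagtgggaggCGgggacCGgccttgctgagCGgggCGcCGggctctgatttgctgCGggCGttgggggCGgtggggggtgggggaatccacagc
Col3a1: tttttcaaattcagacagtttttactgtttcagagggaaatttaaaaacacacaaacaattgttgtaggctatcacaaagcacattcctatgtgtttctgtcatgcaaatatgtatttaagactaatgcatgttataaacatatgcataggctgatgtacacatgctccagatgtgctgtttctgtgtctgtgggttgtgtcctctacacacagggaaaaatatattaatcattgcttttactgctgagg
Col9a1: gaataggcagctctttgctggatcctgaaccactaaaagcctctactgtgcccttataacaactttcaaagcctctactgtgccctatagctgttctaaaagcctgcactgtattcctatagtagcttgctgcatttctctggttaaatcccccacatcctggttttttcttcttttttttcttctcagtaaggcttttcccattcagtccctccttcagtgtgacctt
Col4a5: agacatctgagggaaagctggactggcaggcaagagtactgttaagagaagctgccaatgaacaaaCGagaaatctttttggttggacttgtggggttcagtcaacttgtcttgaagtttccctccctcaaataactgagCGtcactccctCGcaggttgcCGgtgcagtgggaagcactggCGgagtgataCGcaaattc
Col4a6: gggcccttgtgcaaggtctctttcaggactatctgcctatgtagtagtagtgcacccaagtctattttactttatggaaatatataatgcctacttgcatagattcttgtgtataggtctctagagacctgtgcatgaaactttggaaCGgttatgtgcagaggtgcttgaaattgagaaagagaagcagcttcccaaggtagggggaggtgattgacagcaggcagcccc
The printed stretch of Col1a2 holds 11 CG and that of Col5a1 25. Those of Col3a1 and Col9a1 hold 0, that of Col4a5 holds 6 and that of Col4a6 holds 1. In full windows of 250 bases Col1a2 has 11, Col5a1 28, Col4a5 10, Col4a6 3, and Col3a1 and Col9a1 have 0. The summaries that follow count full windows. Over the 22 windows of 21 collagens with a peak near the start the median was 12.5 CG, and 16 windows (72.7%) held at least 10. Over the 16 windows of 14 collagens without a peak the median was 3 and 3 windows held at least 10. Among all 32851 windows of the table the median was 6, and 37.8% held at least 10. The letters TATAAA, searched on both strands, stood in 5 of 38 collagen windows (13.2%) and in 12.4% of all windows, and CCAAT in 13 (34.2%) and in 33.8%. Col3a1 is 1 of the 5 with TATAAA.

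From ES cells to day 4 embryoid bodies under DMSO, more collagens fell than rose, and 15 of 36 did not pass in either direction. Expression was compared with limma on log2(RPKM + 1), which understates the change of low genes, with Benjamini-Hochberg adjustment over all 14016 genes tested in the table and a threshold of 0.05. Of 36 collagens tested, 17 fell and 4 rose, where 15.7% of all genes fell and 17.1% rose. The median log2 change was -0.40 over the collagens and 0.03 over all genes. By class, 6 of 10 fibrillar genes fell and 2 rose (median -1.25), 0 of 4 basement membrane genes fell and Col4a6 rose (median 0.08), and 11 of 22 others fell and 1 rose (median -0.47). Values of ES and day 4 libraries did not overlap for 21 collagens lower at day 4 and 6 higher, where 33.6% and 37.9% of all genes were so separated.

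Col1a2, a chain of type I collagen, had 17.6 and 27.3 RPKM in DMSO ES cells and 0.434 and 0.834 at day 4. The log2 change was -3.82 ± 0.74 (SE; limma adjusted p = 0.00396, n = 2 libraries per group), and both ES libraries lay above both day 4 libraries. Its partner chain Col1a1 had 4.64 and 5.07 RPKM in ES cells and 0.487 and 0.383 at day 4, again without overlap (log2 change -2.03 ± 0.41, limma adjusted p = 0.00512). Col3a1, the single chain of type III collagen, fell by 2.79 on the log2 scale, Col5a1 by 1.53, Col5a2 by 2.41 and Col5a3 by 0.97, all chains of type V collagen that sits inside type I fibrils. Among the others, Col6a1, a chain of beaded filaments, went from 5.86 and 7.72 RPKM to 0.456 and 0.420 (log2 change -2.43 ± 0.24, limma adjusted p = 0.000112). Col6a3 fell by 1.84, Col6a2 by 0.80 and Col6a4 by 0.53, so 4 type VI chains fell. The fibril-associated Col12a1 fell by 2.29 and Col16a1 by 1.13, the membrane-spanning Col13a1 by 1.58 and Col17a1 by 0.43, the anchoring fibril gene Col7a1 by 0.52, the short-chain Col8a1 by 0.96, and Col26a1, a minor secreted collagen, by 1.70. Without DMSO ES library 2 the log2 change of Col16a1 was -0.74, still past the threshold. Of the 21 calls of both directions, 14 held whichever of the 4 libraries was left out, and those of Col6a2, Col6a4, Col7a1, Col17a1, Col26a1, Col27a1 and Col4a6 were lost without at least 1 of them.

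The 4 genes that rose at day 4 were Col2a1, Col9a3, Col27a1 and Col4a6. Col2a1, the chain of type II collagen, had 0.540 and 0.627 RPKM in ES cells and 2.04 and 2.09 at day 4 (log2 change 0.95 ± 0.14, limma adjusted p = 0.000963). Col9a3, a chain of the type IX collagen on the surface of type II fibrils, rose by 1.38 (limma adjusted p = 0.00448). The fibrillar Col27a1 rose by 0.44 (limma adjusted p = 0.0487) and Col4a6 by 0.49 (limma adjusted p = 0.0244). Fibroblast and mesenchyme markers moved with these changes: 11 of 19 tested fell, 0 rose, and their median log2 change was -1.32. In ES cells the 20 listed markers summed to 154 and 213 RPKM with none at 0. Their part in the collagen changes was not tested, and ES cells grew on feeders while embryoid bodies did not, so feeder RNA and ES cell RNA cannot be told apart in these values.

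**Figure D1:**
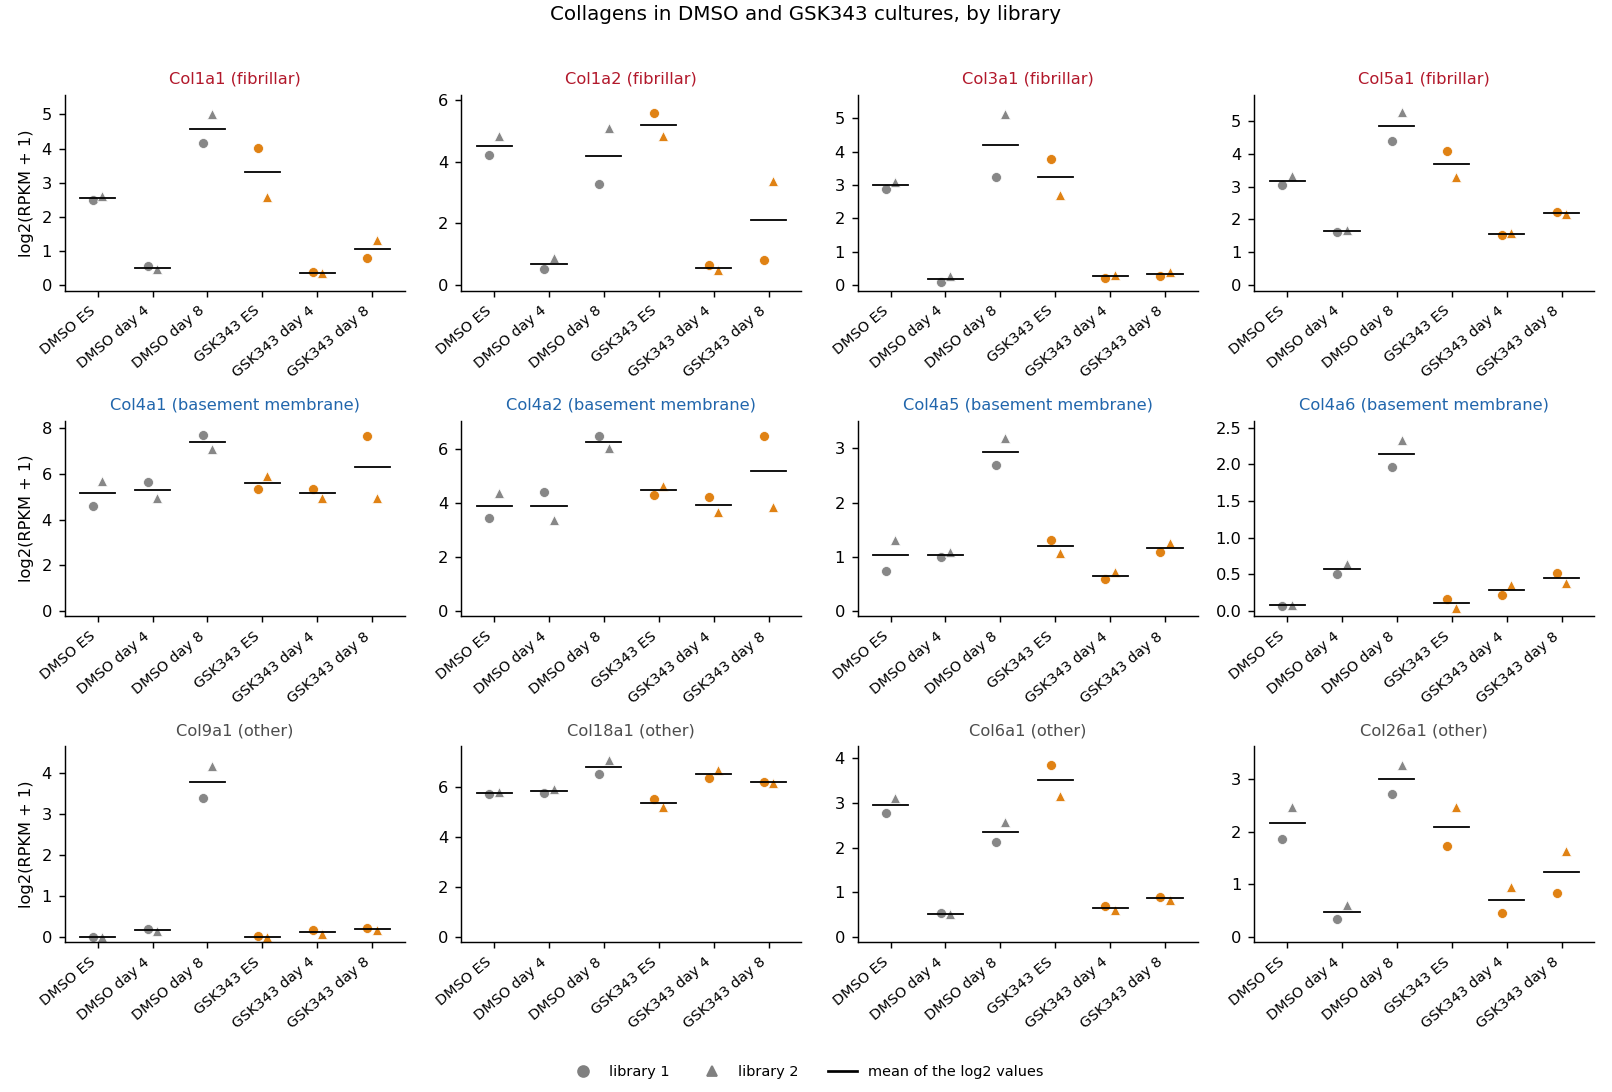
Expression of collagen genes in each of the 12 libraries of the DMSO and GSK343 table, by treatment and stage on the x axis and as log2(RPKM + 1) on the y axis. Symbols stand for libraries 1 and 2, colours for DMSO and GSK343, and black lines for group means of the log2 values. At day 8 both DMSO libraries of Col1a1, Col3a1, Col5a1, Col9a1, Col4a5 and Col4a6 lie above both GSK343 libraries, whereas those of Col4a1 and Col4a2 do not separate.

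Between day 4 and day 8 under DMSO, 18 of 36 tested collagens rose, 1 fell and 17 did not pass, where 23.3% of all genes rose and 18.1% fell. The median log2 change was 0.56 over the collagens and 0.05 over all genes. All 4 tested basement membrane genes rose (median 2.00), with 5 of 10 fibrillar (median 0.93) and 9 of 22 others (median 0.31). Groups did not overlap for 24 collagens higher and 5 lower at day 8, where 42.1% and 36.2% of all genes were so separated. In bulk samples of this kind, fewer cells of a type and less RNA per cell cannot be told apart.

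Col1a1 had 0.487 and 0.383 RPKM at day 4 and 16.7 and 31.5 at day 8 (log2 change 4.07 ± 0.41, limma adjusted p = 5.45e-05). Col3a1 had 0.0712 and 0.225 RPKM at day 4 and 8.52 and 34.0 at day 8 (log2 change 3.99 ± 0.50, limma adjusted p = 0.000193). Col5a1 had 2.09 and 2.20 RPKM at day 4 and 19.8 and 37.6 at day 8 (log2 change 3.17 ± 0.30, limma adjusted p = 3.24e-05). In these 3 genes day 8 stood above day 4 in both libraries, with library 2 the higher at day 8. Col1a2 rose by 3.48 and Col5a2 by 1.44 (limma adjusted p = 0.00410 and 0.0394). The Col5a2 change was 0.57 without DMSO day 8 library 2 (limma adjusted p = 0.326) and 2.32 without library 1 (limma adjusted p = 0.00296). Col9a1, the first chain of type IX collagen, had no read in either DMSO ES library, 0.137 and 0.101 RPKM at day 4 and 9.45 and 17.1 at day 8. Its log2 change of 3.62 ± 0.21 (limma adjusted p = 1.16e-06) had the smallest adjusted p among the collagens in this comparison. Of its DMSO libraries only those of day 8 reached the 0.5 RPKM asked of tested genes. Its place in the comparison thus rests on the group where it was high. Col9a3 fell by 0.84 (limma adjusted p = 0.0335), so 2 chains of type IX collagen moved in opposite directions.

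Col4a1 and Col4a2, the chains of the common basement membrane network, had with Col18a1 the highest group means of all collagens in the DMSO embryoid bodies of both days. Col4a1 had 49.6 and 30.0 RPKM at day 4 and 209 and 136 at day 8 (log2 change 2.10 ± 0.71, limma adjusted p = 0.0373). Col4a2 had 20.5 and 9.42 RPKM at day 4 and 88.0 and 65.9 at day 8 (log2 change 2.37 ± 0.69, limma adjusted p = 0.0200). Both day 8 libraries of each gene exceeded both day 4 libraries. The Col4a1 call was nevertheless lost whichever of the 4 libraries was left out (log2 change 1.75 to 2.45) and the Col4a2 call without DMSO day 4 library 2 or either day 8 library. Col4a5 rose by 1.91 and Col4a6, its neighbour in the opposite direction on the X chromosome, by 1.58 (limma adjusted p = 0.000106 and 2.59e-05). Col18a1, the source of endostatin, had 53.0 and 58.9 RPKM at day 4 and 89.5 and 134 at day 8, a log2 rise of 0.96. Col26a1 rose by 2.53, Col13a1 by 2.15, Col6a1 by 1.83, the membrane-spanning Col23a1 by 1.05, and the fibril-associated Col20a1, Col14a1 and Col22a1 by 0.99, 0.57 and 0.54. Of the 19 calls in this comparison 14 held whichever library was left out, and besides Col4a1, Col4a2 and Col5a2 those of Col9a3 and Col22a1 did not. Of the marker lists, 15 of 19 fibroblast and mesenchyme markers, 14 of 17 endoderm markers and 7 of 7 endothelial markers rose alongside, and 7 of 8 pluripotency markers fell. Their part in the collagen changes was not tested.

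No collagen passed the threshold with GSK343 against DMSO in ES cells or at day 4. In ES cells 0 of 36 collagens passed in limma, the share of all genes higher was 0% and lower 0%, and 6 collagens had an unadjusted p under 0.05 (smallest limma adjusted p = 0.707). At day 4 again 0 passed, where 0.499% of all genes were higher and 0.128% lower, and 2 collagens had an unadjusted p under 0.05 (smallest limma adjusted p = 0.0811). The median log2 difference was 0.04 in ES cells and 0.01 at day 4. Groups did not overlap for 3 collagens higher and 8 lower in ES cells, where 18.8% and 13.3% of all genes were so separated. At day 4 they did not overlap for 12 higher and 11 lower, where 19.8% and 23.8% of all genes were so separated. Limma's voom method on recovered reads also called 0 collagens at either stage, where it called 0 of all 14016 genes in ES cells and 54 higher and 6 lower at day 4.

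At day 8, 13 of 36 collagens were lower and 4 higher with GSK343 than with DMSO, where 16% of all genes were lower and 15.6% higher. Collagens took 0.308% and 0.335% of the reads with DMSO and 0.250% and 0.0924% with GSK343, so that library 2 held the lower share of the GSK343 libraries. Of the 17 calls, 11 held whichever of the 4 libraries was left out, and those of Col5a3, Col11a2, Col13a1, Col17a1, Col18a1 and Col23a1 did not. The median log2 difference was -0.34 over the collagens and 0.00 over all genes. Lower were 4 of 10 fibrillar (median -0.86), 2 of 4 basement membrane (median -1.40) and 7 of 22 other genes (median -0.17). Groups did not overlap for 16 collagens lower and 4 higher, where 32% and 32.7% of all genes were so separated. The DMSO day 8 libraries are shared with the comparison of day 8 and day 4 above, so the 2 sets of calls are not independent.

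Col1a1 had 16.7 and 31.5 RPKM with DMSO and 0.736 and 1.50 with GSK343 at day 8. The log2 difference was -3.53 ± 0.41 (limma adjusted p = 0.000155) and the GSK343 values came close to those of day 4. Col3a1 had 8.52 and 34.0 RPKM with DMSO and 0.204 and 0.329 with GSK343, without overlap (log2 difference -3.85 ± 0.50, limma adjusted p = 0.000289). Col5a1, the gene with 28 CG in its full promoter window, had 19.8 and 37.6 RPKM with DMSO and 3.67 and 3.49 with GSK343 (log2 difference -2.63 ± 0.30, limma adjusted p = 0.000129). Col11a2, a chain of cartilage type XI collagen, was lower by 0.49 (limma adjusted p = 0.0360). For Col1a2 the values were 8.73 and 32.7 RPKM with DMSO and 0.766 and 9.39 with GSK343, so the groups overlapped. Its log2 difference of -2.08 ± 0.74 missed the threshold (limma adjusted p = 0.0560), and it passed at -2.08 with the replicate number as a block (limma adjusted p = 0.0248) and at -2.74 with voom (limma adjusted p = 0.0404). Leaving out 1 library moved it both ways: to -3.36 without GSK343 day 8 library 2 and -2.97 without DMSO day 8 library 1 (limma adjusted p = 0.00339 and 0.0309), and to -0.80 without GSK343 library 1 and -1.18 without DMSO library 2 (limma adjusted p = 0.367 and 0.358). Col5a3 went the other way: it had 0.0797 and 0.0373 RPKM with DMSO and 0.461 and 0.617 with GSK343 (log2 difference 0.54, limma adjusted p = 0.0132).

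Of the 4 tested type IV genes, the pair on the X chromosome was lower and the pair on chromosome 8 did not pass. Col4a5 had 5.51 and 8.10 RPKM with DMSO and 1.13 and 1.38 with GSK343 (log2 difference -1.77 ± 0.22, limma adjusted p = 0.000208). Col4a6 had 2.89 and 4.05 RPKM with DMSO and 0.431 and 0.300 with GSK343 (log2 difference -1.70 ± 0.14, limma adjusted p = 1.77e-05). Both were low in both GSK343 libraries. Col4a1, by contrast, had 209 and 136 RPKM with DMSO and 202 and 29.6 with GSK343, and Col4a2 had 88.0 and 65.9 with DMSO and 89.9 and 13.5 with GSK343. GSK343 library 1 stood at the DMSO level and library 2 at the day 4 level. Their log2 differences of -1.11 ± 0.71 and -1.09 ± 0.69 did not pass (limma adjusted p = 0.270 and 0.266). Without library 2 they were 0.26 and 0.24, and without library 1 they were -2.47 and -2.42 (limma adjusted p = 0.00394 and 0.00417).

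Among the other collagens Col9a1 had the smallest adjusted p, though of the libraries compared only those with DMSO reached the 0.5 RPKM asked of tested genes. It had 9.45 and 17.1 RPKM with DMSO and 0.154 and 0.130 with GSK343 (log2 difference -3.59 ± 0.21, limma adjusted p = 1.37e-06), so that the GSK343 libraries stood at the day 4 level. Col26a1 had 5.62 and 8.70 RPKM with DMSO and 0.775 and 2.10 with GSK343 (log2 difference -1.77, limma adjusted p = 0.00368). Col6a1 had 3.38 and 4.93 RPKM with DMSO and 0.869 and 0.786 with GSK343 (log2 difference -1.48, limma adjusted p = 0.00111). None of these 3 genes overlapped between treatments. Col13a1 was lower by 1.09, Col23a1 by 1.03, Col14a1 by 0.67 and Col18a1 by 0.61 on the log2 scale (limma adjusted p = 0.0274, 0.00749, 0.00121 and 0.0345). The Col13a1 difference was -0.46 without GSK343 day 8 library 1 (limma adjusted p = 0.124) and -1.72 without library 2 (limma adjusted p = 0.000307), and it also missed the threshold without either DMSO library. That of Col18a1 was -0.32 without DMSO day 8 library 2 (limma adjusted p = 0.273) and missed the threshold without either GSK343 library, and that of Col23a1 was -0.77 without DMSO library 1 (limma adjusted p = 0.0655). With only the groups compared in the fit, 12 collagens passed, 2 higher and 10 lower. Col13a1 and Col18a1 were among those that did not. The genes higher with GSK343 were all low: Col6a4 had 0.0164 and 0.0537 RPKM with DMSO and 0.550 and 0.543 with GSK343, and Col6a5 had 0.0262 and 0 with DMSO and 0.724 and 0.574 with GSK343. Their log2 differences were 0.58 and 0.70, and that of Col17a1 was 0.39 (limma adjusted p = 0.00238, 0.00360 and 0.0262).

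**Figure D2:**
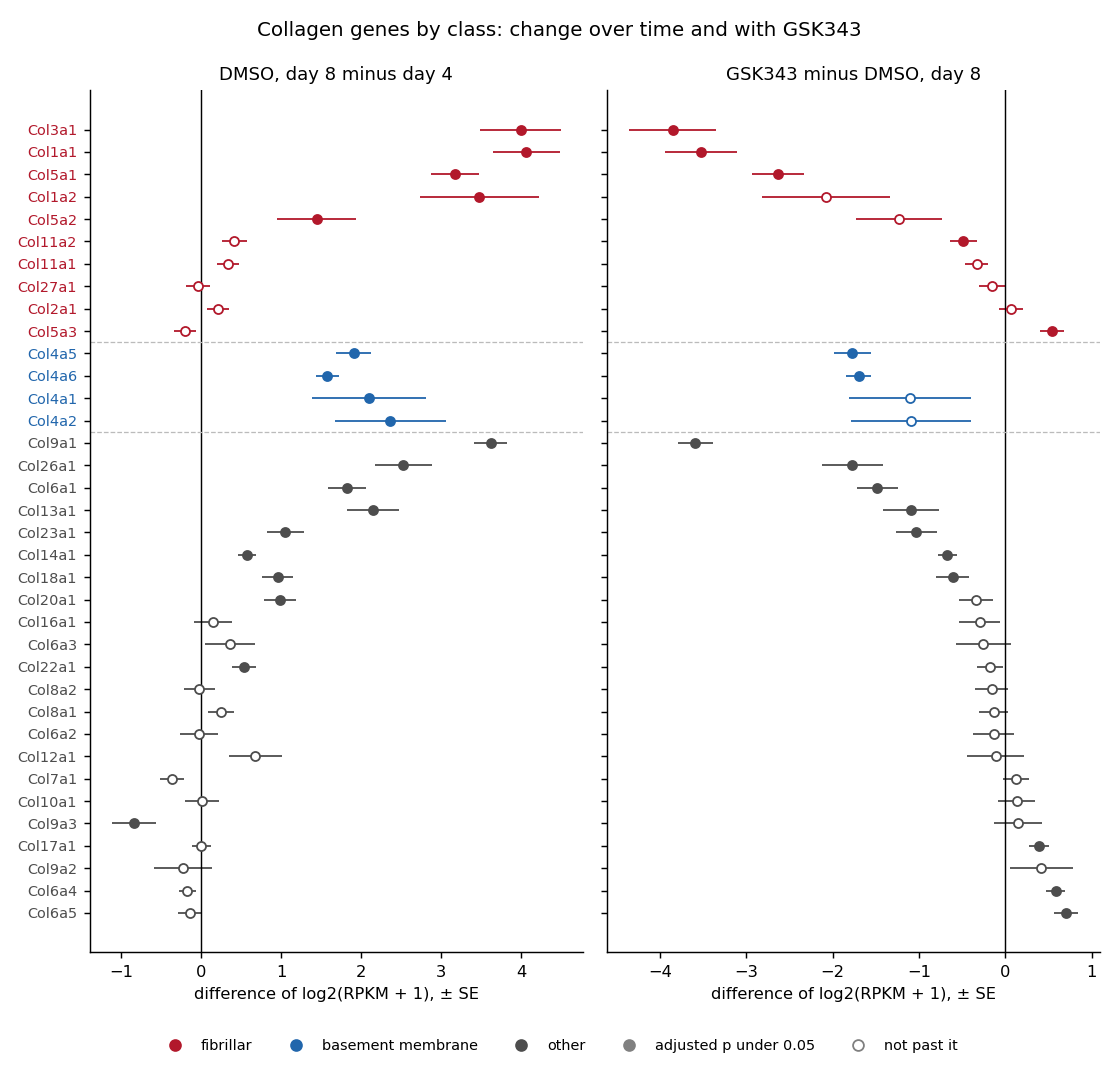
Log2 differences of collagen genes with their standard errors on the x axis, with 1 gene per row grouped by class, for day 8 minus day 4 under DMSO (left) and GSK343 minus DMSO at day 8 (right). Filled points passed at a limma adjusted p of 0.05, and open points did not. Col1a1, Col3a1 and Col9a1 have the right-most points on the left panel (4.07, 3.99 and 3.62) and the left-most on the right panel (-3.53, -3.85 and -3.59).

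The change from day 4 to day 8 itself differed between treatments. This interaction was negative for 11 of 36 collagens and positive for 0, where 6.51% of all genes were negative and 5.68% positive. A negative value is a log2 change with GSK343 below that with DMSO, either a smaller rise or a fall. Col18a1, for instance, was lower at day 8 than at day 4 with GSK343. The median was -0.42 over the collagens and 0.02 over all genes. The 11 genes were Col1a1, Col3a1 and Col5a1 of the fibrillar class, Col4a5 and Col4a6 of the basement membrane class, and Col6a1, Col9a1, Col14a1, Col18a1, Col23a1 and Col26a1. Col9a1 had an interaction of -3.55 ± 0.29 (limma adjusted p = 5.37e-05) and Col1a1 one of -3.38 ± 0.59 (limma adjusted p = 0.00496). Leaving out DMSO day 4 library 1 or library 2 left 6 collagens, and leaving out DMSO day 8 library 2 left 7. Col1a1, Col3a1, Col5a1, Col4a6 and Col9a1 passed whichever of the 8 libraries was left out. The interaction rests on the same DMSO day 8 libraries as the comparisons above, the only DMSO libraries where Col9a1 reached 0.5 RPKM.

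The calls at day 8 were set beside the H3K27me3 peaks of wild-type cells. Of the 13 lower collagens, 6 had a peak within 1 kb of the gene span (Col1a1, Col5a1, Col13a1, Col14a1, Col23a1 and Col26a1), of the 4 higher ones 2 (Col5a3 and Col6a4), and of the 19 not called 15. Over all genes 50.8% of the lower, 33.7% of the higher and 24.5% of those not called had such a peak. These shares are descriptions without a test.

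Marker lists of other cells moved with the day 8 difference. The 8 pluripotency markers summed to 158 and 126 RPKM with DMSO and 1383 and 1884 with GSK343, 7 of 8 were higher and none was at 0 in any of these libraries. The fibroblast and mesenchyme markers summed to 252 and 373 RPKM with DMSO and 41.6 and 94.9 with GSK343, and 13 of 19 were lower, with 1 of 20 listed at 0 in each library. The endoderm markers summed to 503 and 423 RPKM with DMSO and 289 and 112 with GSK343, and 11 of 17 were lower, with none at 0. Of the 7 endothelial markers 5 were lower. Pdgfra stands in both the mesenchyme and the endoderm list. The part of these cell types in the collagen differences was not tested.

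Genes whose products fold, secrete and crosslink collagen were taken as fixed lists. Of 18 tested genes for folding and hydroxylation, 9 rose from day 4 to day 8 under DMSO and 0 fell, among them P4ha1 (3.72), a prolyl hydroxylase, and Serpinh1 (2.38), the collagen chaperone. With GSK343 at day 8, 9 of 18 were lower and 0 higher (median -0.51), including Serpinh1 (-1.77) and the prolyl 3-hydroxylase P3h2 (-2.20). Of 17 genes for secretion, propeptide removal and crosslinking, 7 rose and 2 fell from day 4 to day 8, led by the lysyl oxidase Loxl2 (3.58). With GSK343, 7 of 17 were lower, such as the propeptidase gene Adamts2 (-2.94) and Bmp1 (-1.44), which cleaves C-terminal propeptides. In the same list 3 were higher: the enhancers of propeptide cleavage Pcolce2 (2.12) and Pcolce (1.01), and Adamts14 (1.14).

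Collagen receptors, collagenases and partners in the basement membrane formed 3 further lists. Of 7 tested collagen receptors, 4 were lower with GSK343, including the endocytic receptor Mrc2 (-1.52) and the integrin chain Itgb1 (-0.82), and Ddr2 (0.65) was higher. Of 5 collagenases and gelatinases, Mmp2 (-1.83) and Mmp14 (-1.06) were lower. Of 14 tested basement membrane partners, 4 were lower, led by the laminin chain Lama4 (-2.95), and 2 were higher, the type IV binding Nid2 (1.12) and the laminin chain Lama3 (0.71). From day 4 to day 8 under DMSO, 8 of these partners rose and 0 fell, with 2 receptors and 3 collagenases that rose. From ES cells to day 4, 9 of 18 folding genes fell and 1 rose, 9 of 17 secretion and crosslinking genes fell and 2 rose, and 6 of 14 partners fell, among them Lox (-3.45), Pcolce (-3.77), P4ha1 (-1.94) and Nid1 (-2.35). Lox is also 1 of the mesenchyme markers. All values in these lists are log2 differences of genes that passed in limma, beside the shares of all genes given above.

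In the wild-type series without any agent, the fibrillar sum was 123 ± 166 RPKM (SD, n = 3) in ES cells, 7.64 ± 1.99 at day 4 and 149 ± 121 at day 8, and the basement membrane sum was 34.7 ± 22.9, 22.9 ± 11.3 and 129 ± 26.6 RPKM. From ES cells to day 4, 4 of 34 collagens fell and 1 rose, where 4.39% of all genes fell and 4.29% rose, and the median log2 change was -0.67 against 0.01 over all genes. A block for the replicate number, which pairs these libraries, gave 7 lower and 2 higher. In that fit 1038 of all 14180 genes were lower and 1238 higher, also more than without the block. Col5a3 had 1.40, 1.19 and 1.93 RPKM in ES cells and 0.230, 0.0477 and 0.264 at day 4 (log2 change -1.08 ± 0.15, limma adjusted p = 0.00067). Col2a1 had 0.648, 0.443 and 0.431 RPKM in ES cells and 2.72, 2.90 and 1.20 at day 4 (log2 change 1.08 ± 0.28, limma adjusted p = 0.0252), again without overlap. Col12a1 had 2.55, 2.02 and 84.4 RPKM in ES cells and 0.0386, 0 and 0.105 at day 4 (log2 change -3.21 ± 0.89, limma adjusted p = 0.0369). Its ES level was highest in wild-type ES library 3, the library with the high mesenchyme sum, and without it the change was -1.64 (limma adjusted p = 0.0328). The Col12a1 call was lost whichever of the day 4 libraries was left out, and with only the groups compared. Col23a1 fell by 1.69 and Col7a1 by 1.07 (limma adjusted p = 0.0366 and 0.023), and without wild-type ES library 3 the Col7a1 change was -0.69 (limma adjusted p = 0.0473). Groups did not overlap for 19 collagens lower and 1 higher at day 4, where 11.7% and 12.7% of all genes were so separated, and 15 collagens had an unadjusted p under 0.05. The count of calls was 1 without wild-type day 4 library 1 or library 2 and 2 without wild-type ES library 1, and without ES library 3 the same 5 genes passed. The Col5a3 call alone held whichever library was left out. Of the mesenchyme markers, 3 of 19 fell. Of the pathway lists, 4 folding genes fell, 5 secretion and crosslinking genes fell and 1 rose, and 2 basement membrane partners fell.

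From day 4 to day 8 in wild-type cells 7 of 34 collagens rose and 0 fell, where 10.6% of all genes rose and 10.2% fell. The median log2 change was 0.75 over the collagens and -0.01 over all genes. Col4a1 had 20.5, 19.8 and 6.78 RPKM at day 4 and 79.5, 81.5 and 68.6 at day 8 (log2 change 2.35 ± 0.44, limma adjusted p = 0.0035). Col4a2 had 8.04, 7.32 and 2.60 RPKM at day 4 and 49.8, 50.4 and 28.9 at day 8 (log2 change 2.72 ± 0.45, limma adjusted p = 0.00179). Every day 8 library of both genes exceeded every day 4 library. Col1a2 rose by 3.30 ± 1.10 (limma adjusted p = 0.0450), and Col26a1, Col13a1, Col20a1 and Col22a1 rose by 1.95, 1.40, 0.88 and 0.55. Groups did not overlap for 11 collagens higher and 1 lower, where 18.2% and 17.3% of all genes were so separated.

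Col1a1 did not pass in this comparison. It had 0.602, 0.835 and 0.316 RPKM at day 4 and 58.0, 80.0 and 0.402 at day 8 (log2 change 3.59 ± 1.37, limma adjusted p = 0.0738), with day 8 library 3 at the day 4 level. Col3a1 had 49.8, 60.1 and 0.307 RPKM at day 8, Col5a1 had 44.4, 36.2 and 2.16, Col9a1 had 13.4, 12.2 and 0.0384, and Col4a6 had 4.81, 5.28 and 0.233. In each of these genes the same library was low. Without it 16 collagens rose, among them Col1a1 (5.46, limma adjusted p = 0.00234), Col3a1 (5.54), Col5a1 (3.92), Col9a1 (3.73) and Col4a6 (2.15). With the replicate block 10 collagens rose, where 2333 of all 14180 genes rose and 2569 fell. Among the 10 were Col1a1, Col9a1 and Col4a6 (limma adjusted p = 0.0489, 0.0274 and 0.0307). Only 2 rose without wild-type day 4 library 2, day 8 library 1 or day 8 library 2, and 3 without day 4 library 1, and the calls of Col4a1 and Col4a2 held whichever library was left out. Of the markers, 13 of 17 endoderm, 6 of 8 endothelial and 6 of 19 mesenchyme markers rose with the collagens, and their part was not tested. Of the pathway genes, 5 folding genes, 7 basement membrane partners and 1 receptor rose and 0 of these lists fell, including P4ha1 (3.50) and Sparc (2.04), a collagen-binding glycoprotein that is also among the endoderm markers. In the secretion and crosslinking list 2 rose, Loxl2 (3.65) and Adamts2 (2.21), and 2 fell, Pcolce2 (-1.58) and Sec24d (-0.75), a coat protein gene of secretory vesicles.

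**Figure D3:**
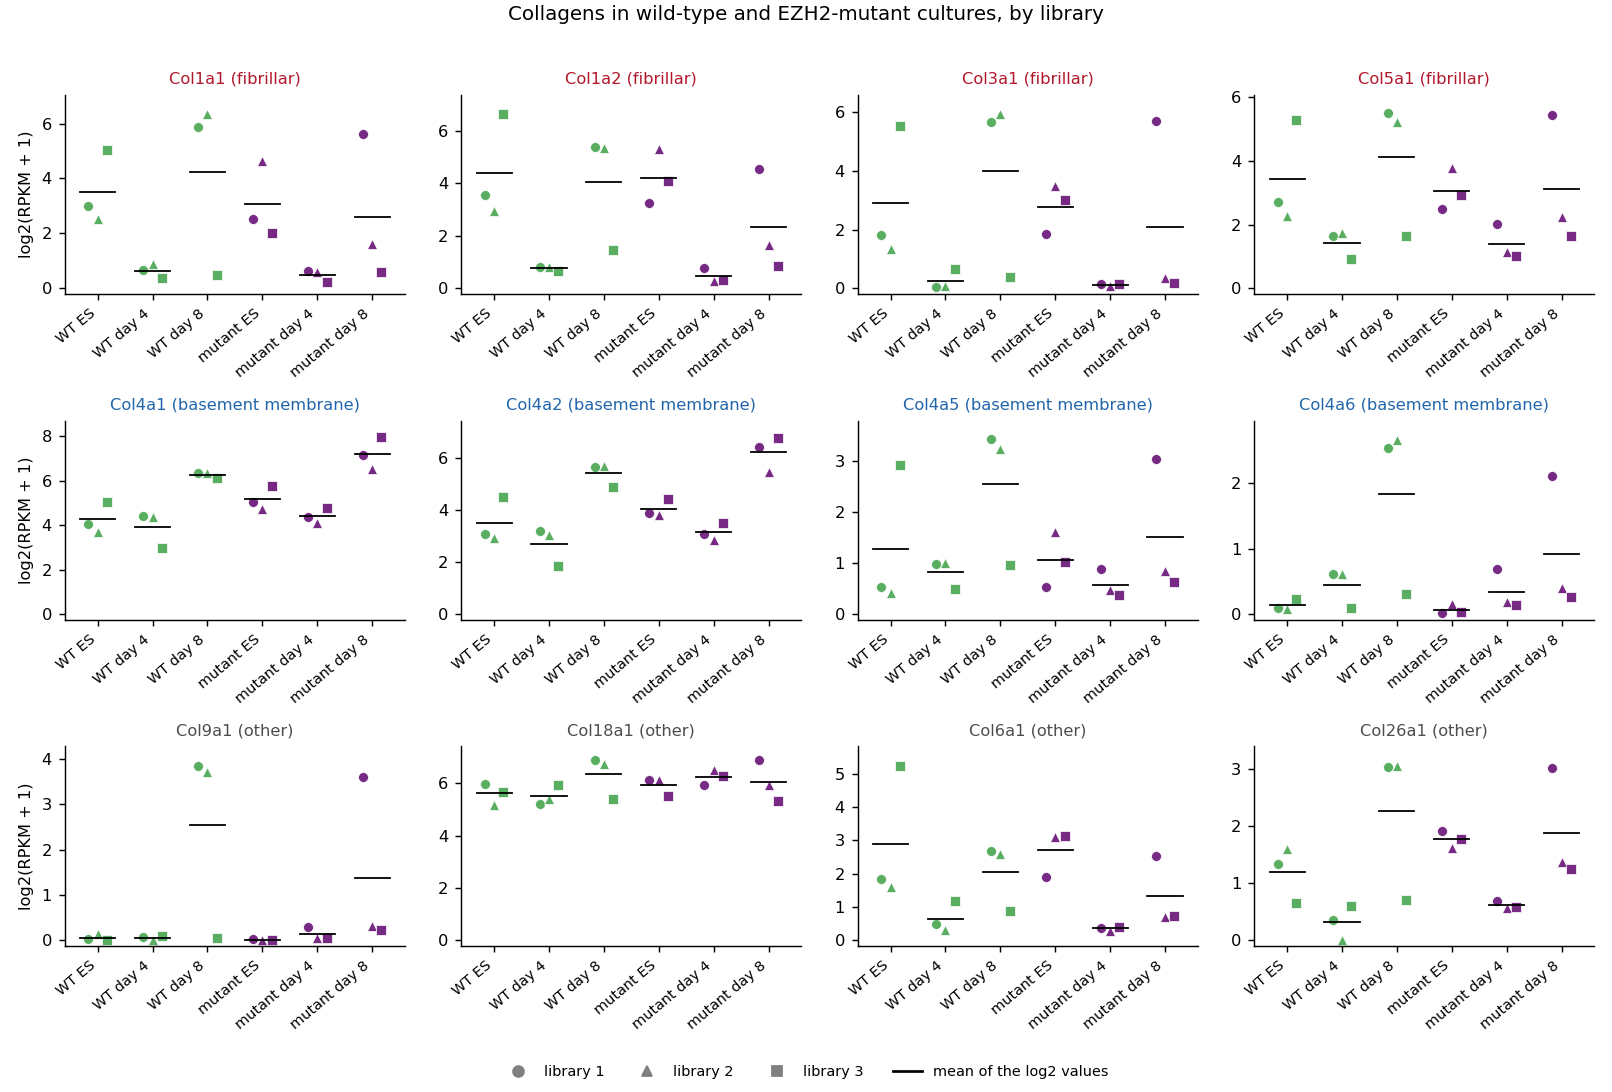
Expression of 12 collagen genes in the 18 libraries of the wild-type and mutant table, by genotype and stage on the x axis and as log2(RPKM + 1) on the y axis. Circles, triangles and squares stand for libraries 1, 2 and 3, colours for genotype, and black lines for group means of the log2 values. At day 8 Col1a1, Col3a1, Col5a1, Col9a1 and Col4a6 are high in wild-type libraries 1 and 2 and mutant library 1 and low in the other 3, while Col4a1 and Col4a2 are high in all 6.

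No collagen differed between mutant and wild-type libraries in limma at any stage. In ES cells 0 of 34 passed, where 0.0635% of all genes were higher and 0.0282% lower, with a median of -0.14, 1 unadjusted p under 0.05 and a smallest limma adjusted p of 0.804. Groups were separated for 1 collagen higher and 3 lower in the mutant, where 7.06% and 5.92% of all genes were so separated. At day 4, 0 passed, where 0.0282% were higher and 0.0212% lower, with a median of 0.03, no unadjusted p under 0.05 and a smallest limma adjusted p of 1. Groups were separated for 3 collagens higher and 1 lower, where 4.83% and 4.41% of all genes were so separated. At day 8, 0 passed, where 1.3% were higher and 0.212% lower, with a median of -0.33 against -0.02 over all genes, 1 unadjusted p under 0.05 and a smallest limma adjusted p of 0.348. The effect of the mutation on the change from day 4 to day 8 passed for 0 collagens and for 0% of all genes in each direction (smallest limma adjusted p = 0.999, no collagen with an unadjusted p under 0.05). Limma's voom method on recovered reads called 0 collagens in these 4 comparisons, but it called few genes at all. Of 14093 genes it called 0 higher and 3 lower in ES cells and at day 4, 1 higher and 3 lower at day 8, and 0 for the change. With so few calls, 0 collagens says little. Without wild-type ES library 3, 0 collagens passed in ES cells, and the effect of the mutation passed for 0 whichever library was left out.

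At day 8 the libraries of each genotype spread widely. Col1a1 had 58.0, 80.0 and 0.402 RPKM in wild-type and 48.0, 2.03 and 0.507 in mutant libraries (log2 difference -1.63 ± 1.37, limma adjusted p = 0.675). Col3a1 had 51.4, 0.275 and 0.141 RPKM in the mutant (log2 difference -1.91 ± 1.50, limma adjusted p = 0.643). Each genotype held both high and low libraries. Without wild-type day 8 library 3, Col9a1 and Col4a6 were lower in the mutant (log2 difference -2.41 and -1.68, limma adjusted p = 0.0349 and 0.0164). Without mutant day 8 library 1, 0 collagens passed, with log2 differences of -3.14 for Col1a1 and -3.72 for Col3a1 (limma adjusted p = 0.183 and 0.132). Col4a1 had 79.5, 81.5 and 68.6 RPKM in wild-type and 142, 90.6 and 247 in mutant libraries. All mutant values lay above all wild-type values, yet the log2 difference of 0.94 ± 0.44 did not pass (limma adjusted p = 0.348). Groups were separated for 2 collagens higher and 1 lower, where 9.46% and 6.4% of all genes were so separated. Of 17 endoderm markers 4 were higher in the mutant and 0 lower, with sums of 437, 404 and 160.5 RPKM in wild-type and 588, 254 and 787 in mutant libraries, and their part in the Col4a1 values was not tested.

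The day 8 class sums were set beside the sum of the pluripotency markers in each library. The DMSO libraries had fibrillar sums of 60.9 and 149 RPKM with pluripotency sums of 158 and 126, and the GSK343 libraries 11.1 and 20.6 RPKM with 1383 and 1884. The wild-type libraries had fibrillar sums of 207, 229 and 9.84 RPKM with pluripotency sums of 59.0, 59.1 and 682, and the mutant libraries 179, 11.6 and 6.35 RPKM with 513, 1566 and 1144. Within each table the libraries with the lowest fibrillar sums thus had pluripotency sums above those of the libraries with the highest fibrillar sums. The basement membrane sum was 306 and 214 RPKM with DMSO, 294 and 44.7 with GSK343, 144, 146 and 98.7 in the wild type and 238, 135 and 356 in the mutant. It was high in GSK343 library 1 and mutant library 3, whose fibrillar sums were low. The tables were normalized separately, and no test was made.

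**Figure D4:**
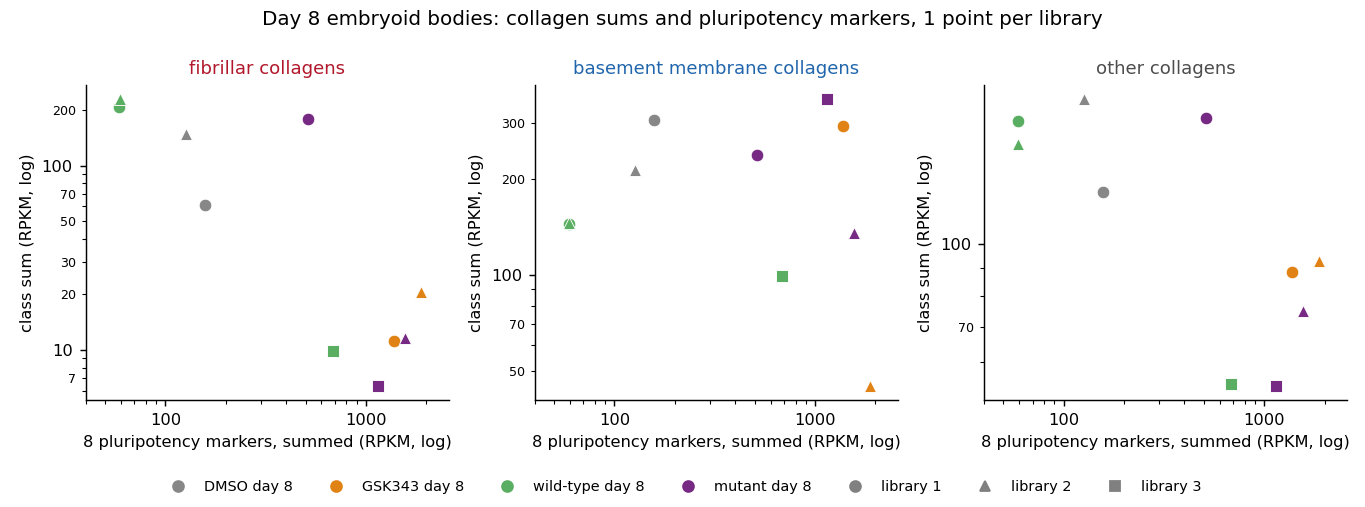
Summed RPKM of the fibrillar, basement membrane and other collagens (y axes, log scale) against the summed RPKM of 8 pluripotency markers (x axis, log scale) in the 10 day 8 libraries. Each point is a library, coloured by group. Fibrillar sums run from 6.35 to 229 and are lowest at high pluripotency sums, whereas the highest basement membrane sum, 356, belongs to a mutant library with a pluripotency sum of 1144.

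Replated cells were tested in their own table, where 37 of 42 listed collagens were kept among 14367 genes. No collagen passed in any of the 4 comparisons and neither did any gene (0% of all genes in each direction). The number of genes with an unadjusted p under 0.05 was 328 for DMSO then GSK343 against DMSO then DMSO, 3385 for GSK343 then DMSO against DMSO then DMSO, 2633 for GSK343 then GSK343 against DMSO then GSK343, and 196 for GSK343 then GSK343 against GSK343 then DMSO. The corresponding numbers of collagens were 0, 6, 10 and 0, and voom on recovered reads called 0 collagens and 0 of all genes in each. The first pair of comparisons shares the DMSO then DMSO libraries.

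Among the collagens of the replated cells, the type I chains Col1a1 and Col1a2 reached the highest group means, 1689 and 790 RPKM in DMSO then GSK343. Col1a1 had 294, 760 and 702 RPKM in DMSO then DMSO, 1004, 3558 and 506 in DMSO then GSK343, 250, 549 and 1160 in GSK343 then DMSO, and 476 and 266 in GSK343 then GSK343. The first 3 groups overlapped throughout, and both GSK343 then GSK343 libraries lay below all DMSO then GSK343 libraries. That log2 difference of -1.77 did not pass (limma adjusted p = 0.269). Col1a2 had 218, 648 and 387 RPKM in DMSO then DMSO, 708, 1309 and 352 in DMSO then GSK343, 201, 312 and 462 in GSK343 then DMSO, and 403 and 140 in GSK343 then GSK343. DMSO then GSK343 library 2 was the highest of all for both genes, with a fibrillar sum of 7153 RPKM. Its collagens took 5.34% of the reads. Group means of Col3a1, Col5a1, Col5a2 and Col6a1 ranged from 71.3 to 494 RPKM, and those of Col12a1 from 65.3 to 271.

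Relative to DMSO then DMSO, the fibrillar genes of DMSO then GSK343 had a median log2 difference of 0.91, with 11 of 11 positive, against -0.23 over all genes. None passed (smallest limma adjusted p = 0.885), and groups were separated for 2 collagens higher and 0 lower, where 1.48% and 6.37% of all genes were so separated. For GSK343 then DMSO against DMSO then DMSO the collagen median was 0.08 (all genes -0.09, smallest limma adjusted p = 0.169). Col12a1, a fibril-associated collagen, had 109, 489 and 217 RPKM in DMSO then DMSO and 74.7, 41.6 and 79.6 in GSK343 then DMSO, so that the groups were apart (log2 difference -1.83, limma adjusted p = 0.18). Groups were apart for 3 collagens lower and 4 higher, where 20.7% and 13.6% of all genes were apart. Col18a1 had 25.4, 14.8 and 12.7 RPKM in DMSO then DMSO and 31.2, 78.8 and 56.8 in GSK343 then DMSO, also apart, in the other direction. It passed only when the fit held these groups alone (log2 difference 1.57).

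For GSK343 then GSK343 against DMSO then GSK343 the medians were -1.19 for fibrillar and -1.48 for basement membrane genes, and -0.76 over all collagens against 0.01 over all genes (smallest limma adjusted p = 0.161). Col4a5 had 14.2, 15.4 and 17.8 RPKM in DMSO then GSK343 and 8.84 and 1.80 in GSK343 then GSK343, apart, with a log2 difference of -1.67 (limma adjusted p = 0.176). Groups were apart for 11 collagens lower and 2 higher, where 14.1% and 17.9% of all genes were apart. Without GSK343 then GSK343 library 1, Col4a5, Col5a2, Col11a1 and Col12a1 were lower (log2 difference -2.58, -2.86, -2.44 and -3.60) and Col13a1 higher (1.33). Without library 2 instead, 0 collagens passed, and the log2 difference was -0.77 for Col4a5 and -0.23 for Col12a1. GSK343 then GSK343 against GSK343 then DMSO had a collagen median of -0.12 (all genes -0.11, smallest limma adjusted p = 1), with 2 collagens apart and lower and 0 higher, where 6.42% and 3.28% of all genes were apart. The pluripotency sum was 64.5 to 699 RPKM in the 6 libraries that began with DMSO and 597 to 1168 in the 5 that began with GSK343, and the mesenchyme sum was 3121 to 6983 and 579 to 3432. Their part in these values was not tested. The pathway lists held 0 called genes in the mutant and in the replated comparisons.

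**Figure D5:**
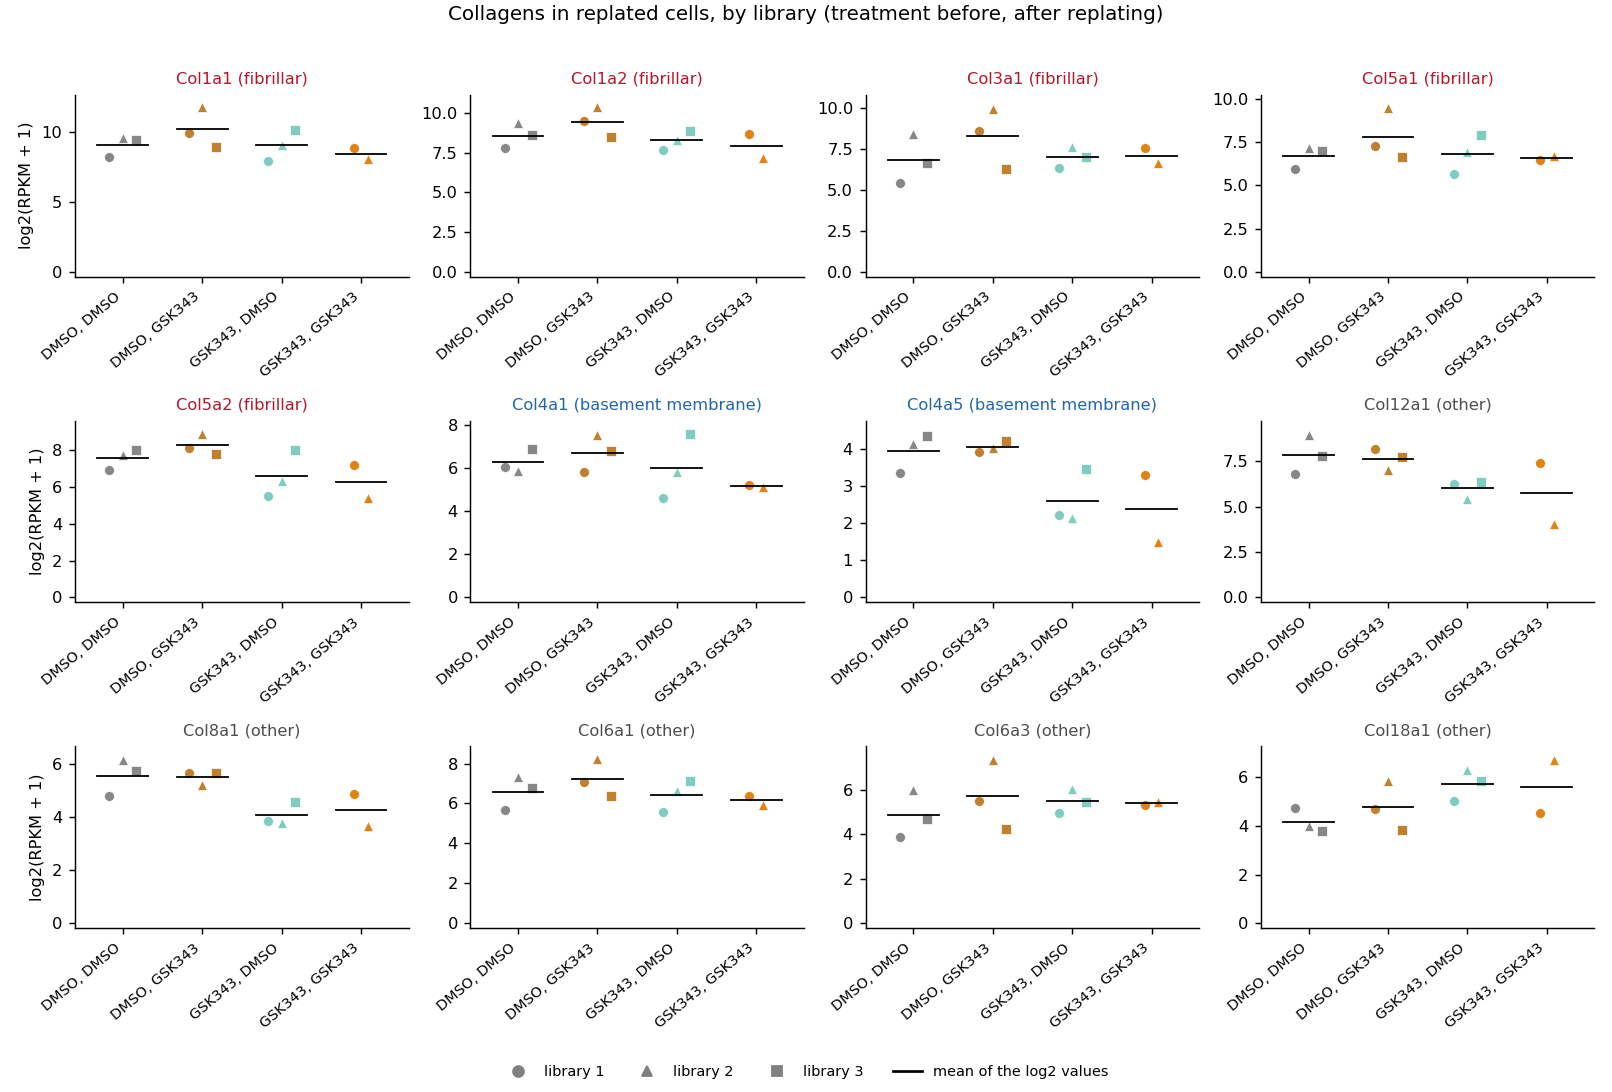
Expression of collagen genes in the 11 replated libraries, by treatment before and after replating on the x axis and as log2(RPKM + 1) on the y axis. Symbols stand for libraries and black lines for group means of the log2 values. Col1a1 and Col1a2 are highest in DMSO then GSK343 library 2, and Col12a1 and Col18a1 separate DMSO then DMSO from GSK343 then DMSO in opposite directions.

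The balance of the type IV partner chains also differed after replating, whereas that of the type I chains overlapped between embryoid bodies and replated cells. The ratio of Col4a1 to Col4a2 RPKM was 1.48 to 3.18 in the 30 libraries of ES cells and embryoid bodies (median 2.33) and 0.801 to 1.04 in the 11 replated libraries, without overlap. These chains join in the type IV molecule. The ratio of Col1a1 to Col1a2, which join in type I collagen, was 0.183 to 0.711 in the 10 ES libraries and 1.17 to 2.72 after replating. It was 0.459 to 2.25 at day 4 and 0.160 to 2.18 at day 8, so both ranges overlapped the replated one. Every ES library thus had more Col1a2 than Col1a1 and every replated library the reverse. A ratio within a library does not depend on its scaling, but the replated libraries stand in a separate table and no test was made.

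The authors' deposited table of the DMSO time course called 21 of 39 collagens lower and 6 higher from ES cells to day 4, beside 17.0% and 15.9% of its genes, and 23 higher and 6 lower from day 4 to day 8, beside 20.9% and 17.7%. For GSK343 from day 4 to day 8, the authors' deposited table called 11 collagens higher and 0 lower, beside 7.02% and 1.27%. For the wild type, the authors' deposited table called 3 collagens higher and 21 lower from ES cells to day 4, beside 5.17% and 8.04% of genes, and 20 higher and 2 lower from day 4 to day 8, beside 11.2% and 5.82%. For the mutant from day 4 to day 8 the authors' deposited table called 16 higher and 0 lower, beside 9.13% and 2.41%. After replating, the authors' deposited table called 1 collagen higher and 1 lower for GSK343 then DMSO against DMSO then DMSO, beside 4.60% and 2.89% of its genes (682 and 429). For GSK343 then GSK343 against DMSO then GSK343, the authors' deposited table likewise called 1 higher and 1 lower, beside 8.48% and 0.654% (1258 and 97 genes). In both of these comparisons limma on log2(RPKM + 1) called no gene.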

How the data were processed

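Reads were aligned with STAR 2.5.3 to mm10 and counted with featureCounts 1.6.1, with edgeR and HOMER 4.10.3 also named and Bowtie2 2.3.4.3 for CUT&RUN, per the submitters' processing notes. The sources used here do not say whether strand was used. The authors deposited RPKM per library in 3 tables, with log2 fold changes, p-values and FDR of their own comparisons, a yes or no polycomb target call and peak lists from the CUT&RUN samples, of which the labels name 27. Of 42 RNA-seq samples, GSK343 then GSK343 library 3 was not analysed here. The RPKM of the wild-type and mutant table carry a further scaling per library: relative to the sum that reads scaled by length and depth must give, their sums were 0.811 to 2.23 there and 1 in the others. RPKM steps gave whole reads (100% within 0.02), from which depths were taken.

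Each table was fitted on its own with limma 3.58.1 (R 4.3.3; eBayes with trend) on log2(RPKM + 1), over all its groups, for genes that reached 0.5 RPKM in a number of libraries no smaller than that of the smallest group. P-values were adjusted by Benjamini-Hochberg over all genes, at a threshold of 0.05. The procedure was also run on simulated independent counts with the same fixed spread for all genes. That run cannot show how the procedure behaves where libraries of a group spread widely, as some did here. Named with values were collagens called in a comparison, those with a group mean of 10 RPKM or more, and up to 3 called genes per direction of each pathway list. The members and lists were chosen with earlier results of these data known. Same-numbered wild-type libraries deviated together between ES cells and day 4 (correlations 0.15 to 0.29 in all pairs) and between day 4 and day 8 (0.22 to 0.43). With the mutant they did so at day 4 (0.29 to 0.81). These numbers were taken as pairs, and the fit with a replicate block is given beside those results where it differed. With the mutant, number 2 had correlations of 0.05 in ES cells and -0.26 at day 8, where the other numbers had 0.63 to 0.75. Alternatives were a pseudocount of 0.1, no filter, median of ratios scaling, only the groups compared, the replicate block, voom on recovered reads, and each library left out. Of the 43 collagens, 22 overlap another RefSeq gene, 5 of them a protein-coding one, and their reads could not be told apart without strand. Promoter windows matched 35 collagens. Figures and tables were made with Python 3.11.15, pandas 2.3.3 and matplotlib 3.10.9.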

Additional observations from a re-analysis of the deposited data

Results flagged for a closer look

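The change from day 4 to day 8 differed between GSK343 and DMSO for 11 collagens by a test of the difference itself, the interaction term in limma. Each value is the log2 change with GSK343 minus the log2 change with DMSO, and all are negative. Among fibrillar genes it was -3.92 for Col3a1, -3.38 for Col1a1 and -2.53 for Col5a1 (limma adjusted p = 0.00615, 0.00496 and 0.00398). Among basement membrane genes it was -1.42 for Col4a6 and -1.39 for Col4a5 (limma adjusted p = 0.00173 and 0.0161). Among the others it was -3.55 for Col9a1, -2.00 for Col26a1, -1.60 for Col6a1, -1.36 for Col23a1, -1.28 for Col18a1 and -0.64 for Col14a1 (limma adjusted p = 5.37e-05, 0.0271, 0.0128, 0.0247, 0.0130 and 0.0255). For all genes tested, 6.51% had a negative and 5.68% a positive interaction. Col18a1 differs from the rest in level: it had 80.7 and 99.0 RPKM at day 4 and 72.4 and 70.5 at day 8 with GSK343, against 53.0 and 58.9 and then 89.5 and 134 with DMSO.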

How the results depend on the processing

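Across the alternatives, 1044 values were taken of collagens that were called or named with a log2 difference. Of these, 889 kept their direction and side of the threshold, 138 missed the threshold, 15 newly passed and 2 reversed. Uncalled values are among the 1044, so the share kept is not that of calls alone. The reversed values were Col4a1 (0.26) and Col4a2 (0.24) for GSK343 minus DMSO at day 8 without GSK343 day 8 library 2, and without GSK343 day 8 library 1 they were -2.47 and -2.42. Of 188 counts of calls 168 stayed within 1.5 times of the reported count. For wild-type day 4 minus ES cells the count was 5 and became 2 with only the groups compared, 8 with a pseudocount of 0.1 and 9 with the replicate block. For wild-type day 8 minus day 4 it was 7 and became 2 with only the groups compared and 3 with voom. GSK343 then DMSO minus DMSO then DMSO gave 1 with only the groups compared, against 0. The cause was not tested in any of these.

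Leaving out 1 library at a time gave 12 to 17 calls for GSK343 minus DMSO at day 8 (17 reported), 15 to 17 for DMSO day 4 minus ES cells (21), 14 to 17 for DMSO day 8 minus day 4 (19), 6 to 12 for the GSK343 interaction (11), 1 to 5 for wild-type day 4 minus ES cells (5) and 2 to 16 for wild-type day 8 minus day 4 (7). It gave 0 to 2 for mutant minus wild type at day 8, 0 to 1 for GSK343 then DMSO minus DMSO then DMSO and 0 to 5 for GSK343 then GSK343 minus DMSO then GSK343, and 0 in the other 7 comparisons. A lone library left in a group was assumed to vary like the other groups. The 1 call in GSK343 then DMSO came without DMSO then DMSO library 1 and was Col8a1 (-1.89). Besides the comparisons named above, the replicate block left every count of calls within 1.5 times, with 18 calls for GSK343 minus DMSO at day 8, 21 for DMSO day 4 minus ES cells, 20 for DMSO day 8 minus day 4 and 11 for the interaction. In those comparisons the numbers share no stated source. With 2 libraries per group both pairs of a comparison give the same correlation by construction. It was 0.39 to 0.67 over the DMSO and GSK343 comparisons, and the reported fit did not pair these libraries. Voom moved the median of all genes in the wild-type and mutant table by up to 0.36 on the log2 scale. The lowest depth, 2265130 reads, was that of a replated library.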
